A study of Ovis aries with 12 samples.

Results

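The choroid plexus transcripts described here are the mRNAs of 9 genes: TTR, C1QTNF5, ENPP2, AQP1, CLIC6, SLC4A5, FOLR1, KL and OTX2. They were taken by gene symbol from a count table of 33609 genes, and all 9 were among the 17806 genes that passed the filter on low counts. The tissue came from adult ewes of the Ile-de-France breed, either chronically stressed or kept as controls, and was taken from the dorsal or the ventral hippocampus; no genotype or drug is given. The groups were dorsal stress, dorsal control, ventral stress and ventral control, with 3 libraries each. Each library was an equimolar mix of RNA from 2 ewes, and both regions came from the same 12 ewes, so differences between single animals are averaged within a library. The submitters abbreviate the dorsal samples as DG, and whether the dissection was limited to the dentate gyrus is not stated. The nature of the stress is not given in the sources used here.

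The choroid plexus is a folded sheet of epithelium on a core of vessels that hangs into the brain ventricles and makes cerebrospinal fluid. In the lateral ventricle it is attached along the margin of the hippocampus, so a block of hippocampus can carry some of it. Its epithelial cells secrete transthyretin (TTR), the carrier of thyroid hormone and retinol, pump ions and water with a set of channels and carriers, and hand folate from blood to cerebrospinal fluid. The 9 genes cover these tasks but differ in how far they belong to this epithelium. In mammals ENPP2 is also strongly transcribed by oligodendrocytes, KL by some neurons, and AQP1 by red cell precursors and some vessels.

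Levels are in CPM, counts scaled to a common library total after TMM normalization. The shallowest library, dorsal stress 3, held 12254743 counts and the deepest, dorsal control 1, held 53775720, and all 3 dorsal stress libraries were shallower than all 3 dorsal control ones. The first principal component of log2 CPM held 50.04% of the variance and did not follow region or stress. Dorsal stress 1 and dorsal control 1 scored 70.2 and 81.3 on it and ventral control 1 scored 103, whereas dorsal stress 3, ventral stress 3 and ventral control 3 scored between -105 and -64.0. Results that rest on the control libraries numbered 1 are given with and without them, a choice made after seeing the data. Levels are compared between libraries and not between genes, because gene lengths were not used.

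Of the 9 transcripts, 4 were higher in dorsal than in ventral hippocampus over both conditions: TTR, C1QTNF5, AQP1 and CLIC6. The fold differences were 11.6 for TTR, 10.8 for C1QTNF5, 9.48 for AQP1 and 3.66 for CLIC6. No transcript was lower in dorsal tissue past the test. Of all 17806 genes tested, 1.44% were called higher and 3.07% lower in this comparison (edgeR quasi-likelihood F test, Benjamini-Hochberg adjusted p under 0.05). The median log2 fold change was 1.87 over the 9 transcripts and -0.02 over all genes tested. The 9 transcripts were chosen with earlier results of these data known. The values over all genes are therefore given for scale and are no test of the list. These 4 were also the ones that had every dorsal library above every ventral one in stressed and in control ewes alike, and none of the 9 had every one below in both, against 2.71% and 3.67% of all genes. In this bulk RNA, fewer cells of a type and less RNA per cell cannot be told apart.

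**Figure D1:**
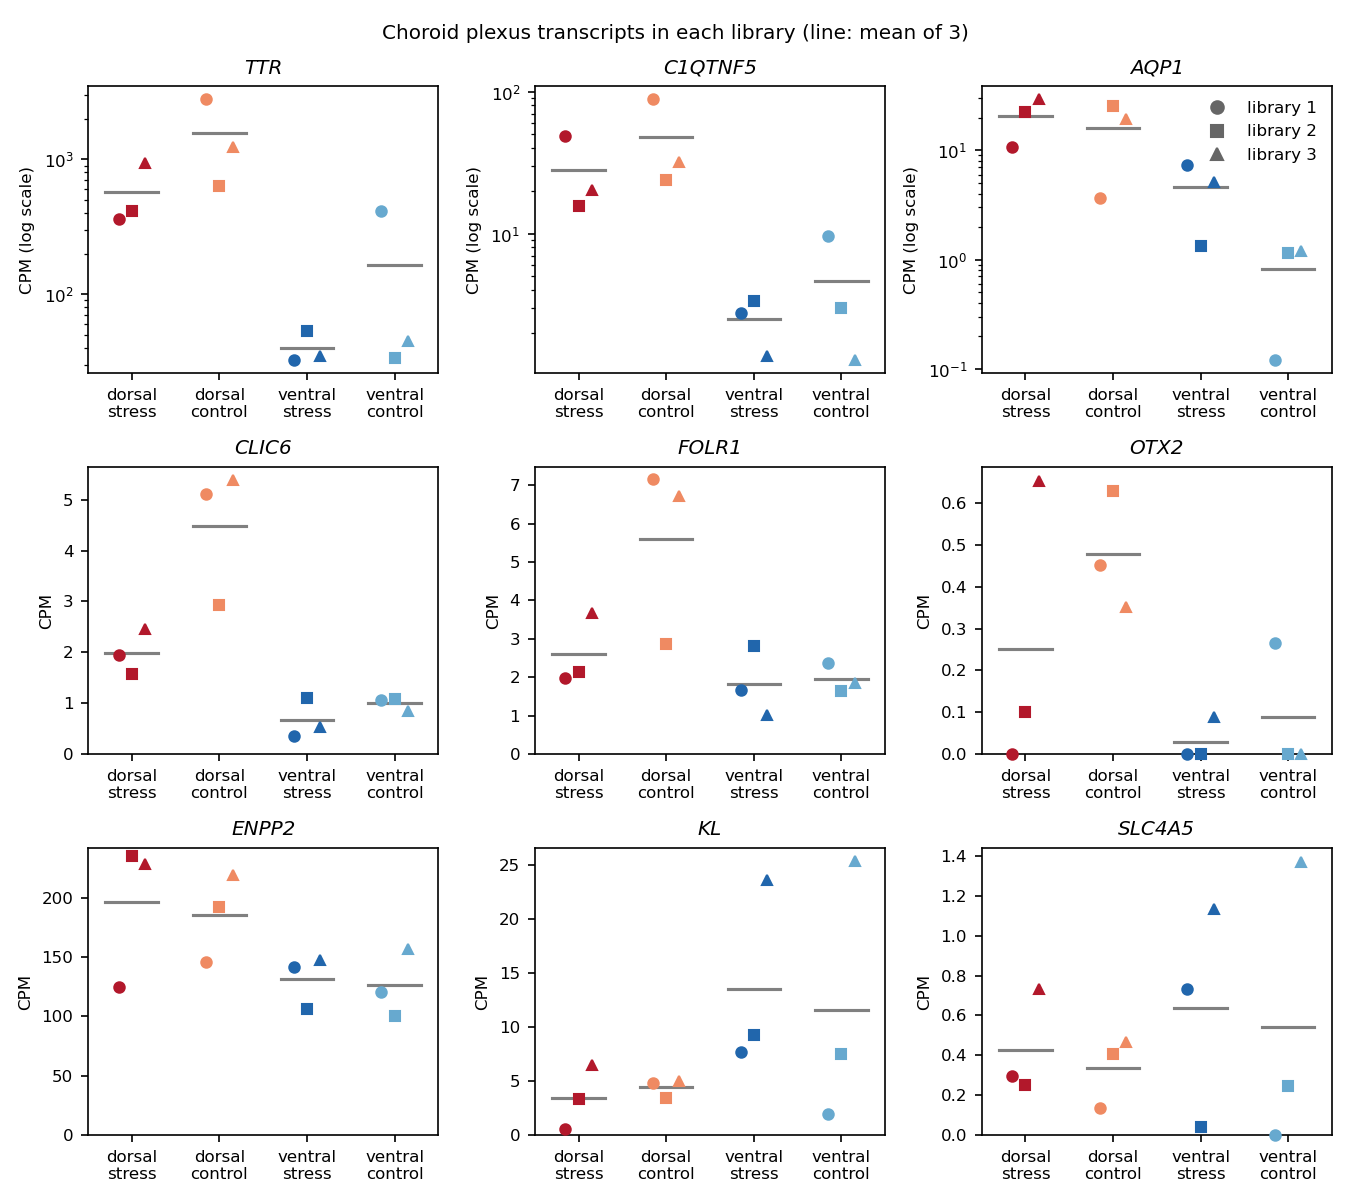
CPM of each of the 9 transcripts in the 12 libraries, with 1 panel per gene, 1 point per library and a grey line at the mean of the 3 libraries of a group. The axes of TTR, C1QTNF5 and AQP1 are logarithmic and the others start at 0. TTR, C1QTNF5, AQP1 and CLIC6 lie higher in dorsal than in ventral libraries within each condition, while KL is highest in ventral stress 3 and ventral control 3.

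Among the secreted proteins, TTR stood at 360, 415 and 942 CPM in dorsal stress libraries 1 to 3 and at 2805, 636 and 1236 CPM in dorsal control libraries. It stood at 32.5, 53.1 and 35.0 CPM in ventral stress and at 413, 33.9 and 45.3 CPM in ventral control. Within each condition every dorsal library was above every ventral one, but ventral control 1 stood apart from the other 5 ventral libraries and above dorsal stress 1. Averaged over conditions the log2 fold change, dorsal minus ventral, was 3.54 ± 0.68 (SE, edgeR adjusted p = 0.0151). Without both control 1 libraries it was 4.19 ± 0.38 (edgeR adjusted p = 0.00164). The SE was smaller without these 2 libraries, and the call did not rest on them.

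C1QTNF5 encodes a secreted C1q and tumour necrosis factor related protein that is best known from the retinal pigment epithelium. Its level was 48.6, 15.8 and 20.3 CPM in dorsal stress, 88.8, 23.8 and 32.0 CPM in dorsal control, 2.75, 3.36 and 1.37 CPM in ventral stress and 9.61, 2.98 and 1.29 CPM in ventral control. All 6 dorsal libraries were above all 6 ventral ones, and library 1 was the highest in 3 of the 4 groups. The log2 fold change was 3.44 ± 0.58 (SE, edgeR adjusted p = 0.00771). In the RefSeq sheep gene table C1QTNF5 lies next to MFRP, a frizzled-related membrane protein gene that is also transcribed in the retinal pigment epithelium. How reads that overlap both genes were assigned is not given in the sources used here, so the counts of this pair are uncertain. MFRP was also higher in dorsal tissue (3.34 ± 0.77, edgeR adjusted p = 0.0351). Its group-centred log2 CPM had a correlation of -0.42 with that of C1QTNF5 over the 12 libraries, which share depth and pools, so the pair did not track each other from library to library.

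ENPP2 encodes autotaxin, a secreted enzyme that makes lysophosphatidic acid. Its level was 125, 235 and 229 CPM in dorsal stress, 146, 192 and 219 CPM in dorsal control, 141, 106 and 148 CPM in ventral stress and 121, 101 and 157 CPM in ventral control. The libraries of the regions overlapped in both conditions. The log2 fold change was 0.57 ± 0.20 (SE, edgeR adjusted p = 0.180) and did not pass the test. All 12 oligodendrocyte markers also had positive log2 fold changes, with a median of 0.67, and MOBP was the 1 called (0.92 ± 0.19, edgeR adjusted p = 0.0232). Their summed level ran from 7179 to 11684 CPM in dorsal stress, 8933 to 11766 in dorsal control, 4711 to 5462 in ventral stress and 4216 to 8900 in ventral control. Their part in the ENPP2 values was not tested.

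Among the channels and carriers, AQP1, the water channel of the ventricular face of the epithelium, gave 10.7, 22.3 and 29.6 CPM in dorsal stress and 3.68, 25.4 and 19.5 CPM in dorsal control. It gave 7.39, 1.34 and 5.18 CPM in ventral stress and 0.120, 1.14 and 1.20 CPM in ventral control. Dorsal libraries were above ventral ones within each condition, but dorsal control 1 was below 2 of the ventral stress libraries. The log2 fold change was 3.24 ± 0.66 (SE, edgeR adjusted p = 0.0206). This call was the least secure of the 4: it ended without any 1 of dorsal stress 2, dorsal stress 3, dorsal control 2, ventral stress 2, ventral stress 3 or ventral control 2, with adjusted p of 0.0502 to 0.0560.

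CLIC6, a member of the chloride intracellular channel family, gave 1.94, 1.57 and 2.45 CPM in dorsal stress, 5.12, 2.92 and 5.39 CPM in dorsal control, 0.348, 1.11 and 0.536 CPM in ventral stress and 1.06, 1.09 and 0.840 CPM in ventral control. All 6 dorsal libraries were above all 6 ventral ones. The log2 fold change was 1.87 ± 0.32 (SE, edgeR adjusted p = 0.00770), smaller than that of TTR but with the smallest p of the 9 transcripts. Without both control 1 libraries the log2 fold changes were 3.62 for C1QTNF5, 3.20 for AQP1 and 1.84 for CLIC6, and all 3 calls held.

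SLC4A5 encodes a sodium bicarbonate cotransporter that in mouse sits on the ventricular face of the epithelium. It gave 0.298, 0.253 and 0.735 CPM in dorsal stress, 0.138, 0.405 and 0.469 CPM in dorsal control, 0.735, 0.0395 and 1.13 CPM in ventral stress and 0, 0.248 and 1.37 CPM in ventral control. The groups overlapped, and the ventral libraries held both the lowest and the highest values. Its log2 fold change was -0.66 ± 0.93 (SE, edgeR adjusted p = 1.00), and its sign was positive with limma-voom. In ventral control 1, where no read was counted, 3 counts would correspond to 0.0721 CPM. Such floors, and the interval given for OTX2, cover counting error only.

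FOLR1, the folate receptor that carries folate across the epithelium, gave 1.99, 2.13 and 3.68 CPM in dorsal stress and 7.17, 2.88 and 6.72 CPM in dorsal control. It gave 1.66, 2.80 and 1.01 CPM in ventral stress and 2.38, 1.64 and 1.85 CPM in ventral control. The regions did not overlap in control ewes and overlapped in stressed ewes. The log2 fold change over both conditions was 1.01 ± 0.33 (SE, edgeR adjusted p = 0.144), and DESeq2 called it (adjusted p = 0.0416).

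KL encodes klotho, the coreceptor of the hormone FGF23, which is also shed into cerebrospinal fluid. It gave 0.597, 3.34 and 6.45 CPM in dorsal stress and 4.84, 3.44 and 4.96 CPM in dorsal control, against 7.66, 9.24 and 23.6 CPM in ventral stress and 1.97, 7.49 and 25.4 CPM in ventral control. In stressed ewes every dorsal library was below every ventral one, whereas in control ewes ventral control 1 lay below all dorsal libraries. The log2 fold change of -1.69 ± 0.65 did not pass the test (SE, edgeR adjusted p = 0.242). Among the 9 transcripts only KL and SLC4A5 had negative estimates.

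OTX2, a homeobox transcription factor that mouse choroid plexus needs to form, was close to the limit of detection. Its raw counts were 0, 2 and 8 in dorsal stress, 23, 28 and 9 in dorsal control, 0, 0 and 3 in ventral stress and 11, 0 and 0 in ventral control. Reads were counted in 5 of 6 dorsal and 2 of 6 ventral libraries, and the groups were apart in control ewes. In stressed ewes the summed counts, scaled for depth, gave a dorsal to ventral ratio of 5.42, with an exact 95% counting interval of 1.40 to 30.7. That interval leaves out the spread between libraries, and dorsal stress 3 held 8 of the 10 dorsal counts. Across the libraries, which overlapped, the fitted log2 fold change in stressed ewes was 2.62 ± 1.72 (SE, edgeR adjusted p = 0.9999). The fitted log2 fold change over both conditions was 2.43 ± 1.11 (SE, edgeR adjusted p = 0.371). It was 1.40 without dorsal stress 3, 4.01 without ventral stress 3, 4.69 without ventral control 1 and 4.64 without both control 1 libraries, and was not called in any of these fits.

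**Figure D2:**
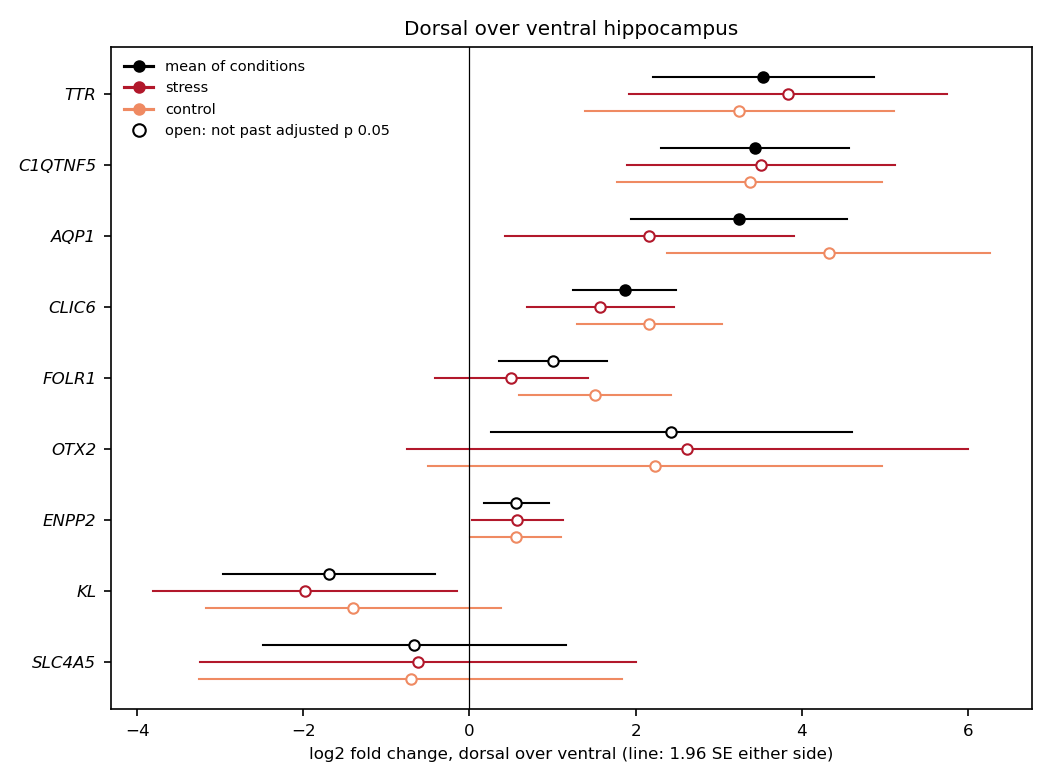
Log2 fold changes, dorsal minus ventral, of the 9 transcripts over both conditions, in stressed ewes and in control ewes, with lines for the 95% interval (normal approximation) and filled points for transcripts called by edgeR at an adjusted p under 0.05. Filled points are those of TTR, C1QTNF5, AQP1 and CLIC6 over both conditions, and the estimates of KL and SLC4A5 are below 0.

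Taken within 1 condition, the comparison of regions rests on 3 libraries a side, and edgeR called none of the 9 transcripts in stressed ewes and none in control ewes. In stressed ewes 0.0842% of all genes tested were called higher and 0.359% lower, and in control ewes 0.247% higher and 0.753% lower. At an unadjusted p under 0.05 there were 4 of the 9 in stressed ewes and 5 in control ewes, against 7.86% and 8.67% of all genes. DESeq2 called 3 in stressed and 5 in control ewes, against 3.26% and 4.09% of all genes in either direction. With a block for each condition and replicate number, which pairs dorsal with ventral libraries, edgeR called 2 and 3. Whether the paired libraries share ewes is not stated. In stressed ewes 4 of the 9 had every dorsal library above every ventral one, against 6.08% of all genes, and 1 (KL) had every one below, against 7.67%. In control ewes 6 of the 9 had every dorsal library above, against 5.44% of all genes, and none had every one below, against 6.22%.

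The sizes of the region difference in the 2 conditions were close for most of the 4 transcripts called over both. For TTR the log2 fold change was 3.83 ± 0.98 in stressed ewes and 3.25 ± 0.95 in control ewes. For C1QTNF5 it was 3.51 ± 0.82 in stressed ewes and 3.37 ± 0.81 in control ewes. AQP1 had the widest gap, with 2.17 ± 0.89 in stressed ewes and 4.32 ± 0.99 in control ewes. CLIC6 had 1.58 ± 0.45 in stressed ewes and 2.17 ± 0.45 in control ewes, the last with an edgeR adjusted p of 0.0512. Whether these pairs differ was tested as the difference of the stress effects, and none of the 9 was called.

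Chronic stress was not accompanied by a called change of any of the 9 transcripts. In edgeR no gene of the 17806 was called in dorsal tissue (0%) and none in ventral tissue (0%), while 152 and 142 genes had an unadjusted p under 0.05. DESeq2 called 1 gene in each region and limma-voom none, and neither called any of the 9. Averaged over the regions edgeR also called none, and DESeq2 called 14. In that edgeR comparison 308 genes, 1.73% of all, had an unadjusted p under 0.05, and 3 of the 9 transcripts did. These were TTR (-1.74 ± 0.63), CLIC6 (-0.88 ± 0.31) and AQP1 (1.45 ± 0.63; log2 fold change, SE). For the difference of the stress effects edgeR and DESeq2 called none, with 46 genes at an unadjusted p under 0.05. With all SE between 0.20 and 1.88 on the log2 scale, a stress effect of several fold could be missed for the more variable transcripts.

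**Figure D3:**
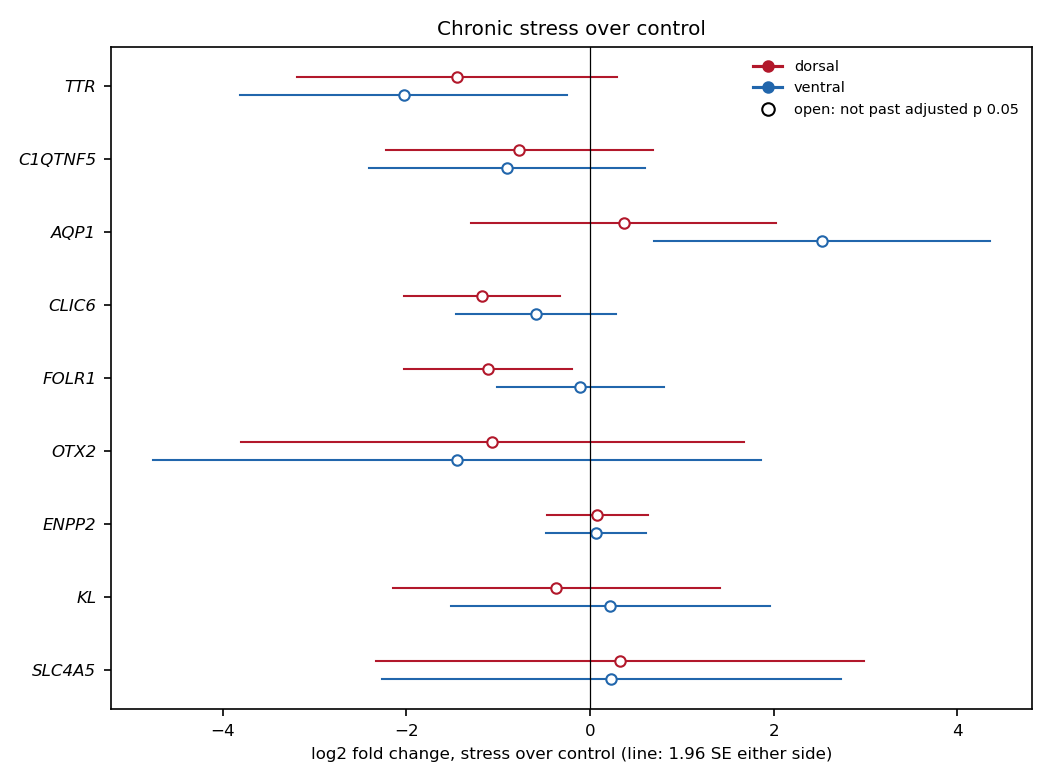
Log2 fold changes, stress minus control, of the 9 transcripts in dorsal and in ventral hippocampus, with lines for the 95% interval (normal approximation); no point is filled because none was called by edgeR at an adjusted p under 0.05. The estimates for TTR, CLIC6, FOLR1, OTX2 and C1QTNF5 are below 0 in both regions, and that for AQP1 in ventral hippocampus is 2.52.

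Within a region, an unadjusted p under 0.05 for stress was reached by 2 transcripts in dorsal tissue (CLIC6 and FOLR1), against 0.854% of all genes. In ventral tissue 2 reached it (AQP1 and TTR), against 0.797% of all genes. CLIC6 in dorsal tissue averaged 1.99 ± 0.44 CPM in stressed and 4.48 ± 1.35 CPM in control ewes (SD, n = 3 each), a log2 fold change of -1.17 ± 0.43 (SE), and its libraries did not overlap. It was the 1 transcript of the 9 with all dorsal stress libraries lower, against 2.75% of all genes, and none had all of them higher, against 2.38%. FOLR1 in dorsal tissue averaged 2.60 ± 0.94 CPM in stressed and 5.59 ± 2.36 CPM in control ewes, a log2 fold change of -1.11 ± 0.47, with overlap. AQP1 in ventral tissue averaged 4.64 ± 3.06 CPM in stressed and 0.82 ± 0.61 CPM in control ewes, a log2 fold change of 2.52 ± 0.93. Its ventral stress libraries were all above the ventral control ones, which held for 1.38% of all genes, and none of the 9 had them all below, against 1.49%. None of these was called after adjustment over all genes (edgeR adjusted p of 0.9998 and above).

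For TTR the stress estimates were -1.45 ± 0.89 in dorsal and -2.03 ± 0.91 in ventral tissue (log2, SE), again not called. The ventral estimate rested on ventral control 1: without that library it was 0.02. Ventral control 1 also had an oligodendrocyte marker sum of 8900 CPM, against 4216 to 5518 CPM in the other ventral libraries, an ependymal sum of 203 CPM, against 101 to 146 CPM, and a meningeal sum of 377 CPM, against 518 to 718 CPM. The part of these in its TTR level was not tested.

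The 9 transcripts did not all move together from library to library. Over the 36 pairs of transcripts the correlation of log2 CPM, centred within each group, had a median of 0.03 and ran from -0.85 to 0.83. Of the pairs, 10 were above 0.5 and 16 below 0. The 12 values behind each correlation share library depth and pooled animals, so these are descriptions. The highest values were 0.83 between AQP1 and SLC4A5 and 0.74 between CLIC6 and FOLR1, and the lowest was -0.85 between AQP1 and C1QTNF5. TTR had correlations of 0.68 with C1QTNF5, 0.64 with OTX2, 0.64 with FOLR1 and 0.43 with CLIC6, and of -0.28 with KL, -0.59 with SLC4A5 and -0.73 with AQP1. Against all other tested genes the median for TTR was -0.04. Several of these values rested on the control 1 libraries. Without both, TTR had correlations of -0.12 with C1QTNF5, -0.08 with AQP1, 0.05 with SLC4A5 and 0.60 with KL, and of 0.85 with FOLR1, 0.69 with CLIC6 and 0.52 with OTX2.

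**Figure D4:**
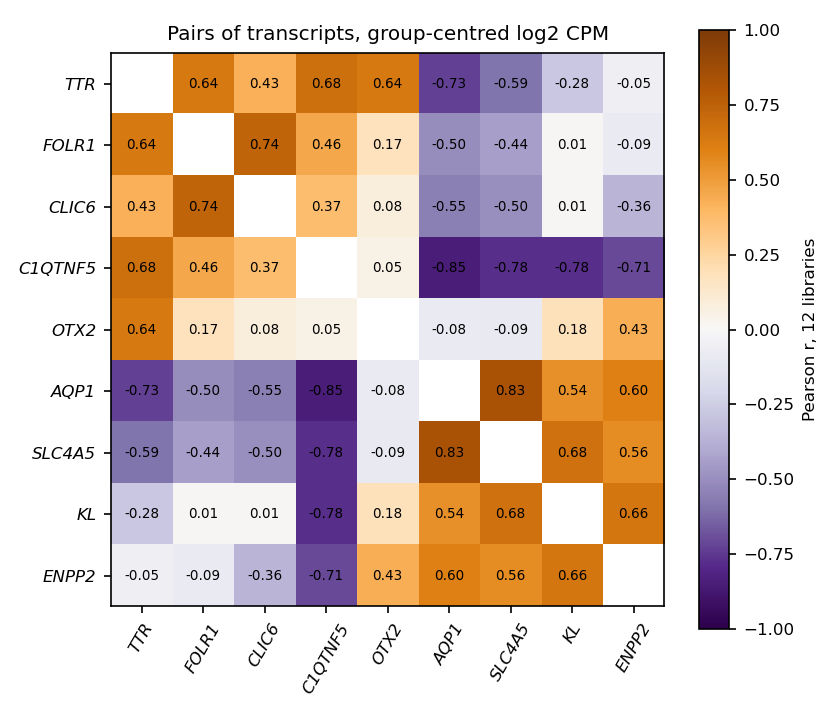
Pearson correlations of group-centred log2 CPM over the 12 libraries for each pair of the 9 transcripts, on a colour scale from -1 to 1. AQP1, KL, SLC4A5 and ENPP2 have positive values among themselves and negative values with C1QTNF5.

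Several of the transcripts followed the first principal component of the libraries. Its group-centred correlation was 0.95 with C1QTNF5 and 0.51 with TTR, and it was -0.86 with KL, -0.86 with SLC4A5, -0.81 with AQP1 and -0.78 with ENPP2. For FOLR1, CLIC6 and OTX2 it was 0.35, 0.34 and -0.13. The part of this component in the correlations was not tested. Within groups the order of libraries also differed by transcript. Dorsal stress 3 was the highest of its group for 7 of the 9, whereas in ventral control library 1 was the highest for 4 and library 3 for 4.

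**Figure D5:**
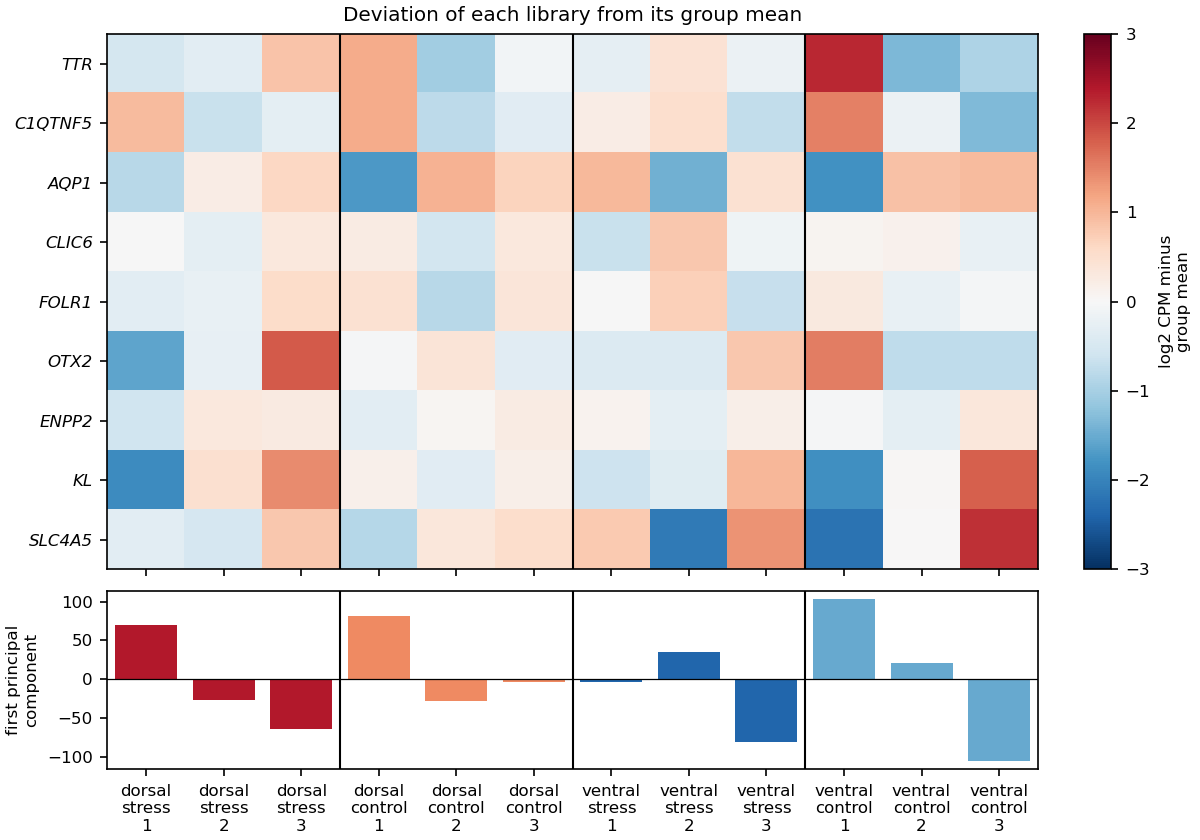
Deviation of log2 CPM of the 9 transcripts from the mean of each group, in the 12 libraries, above bars of the score of each library on the first principal component. Ventral control 1, with the highest score, has high TTR and C1QTNF5 and low AQP1, KL and SLC4A5 for its group.

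TTR was tested against each of the 8 other transcripts within the 6 dorsal and within the 6 ventral libraries, 16 relations in all. The 1 relation that passed was that with FOLR1 in dorsal tissue (Pearson r = 0.949, exact permutation p = 0.00139, Benjamini-Hochberg adjusted p = 0.0222). This is the smallest p that 720 pairings allow, and Spearman's rho was 1 (exact permutation p = 0.00278, adjusted p = 0.0444). Without the 2 libraries farthest from the median of TTR r was 0.953. With counts thinned to the shallowest library r was 0.929 and the relation did not pass (exact permutation, adjusted p = 0.0667), nor did it pass without any 1 dorsal library, where r was at least 0.929 and 5 libraries remained. Both were lower in dorsal stress than in dorsal control on average, so group differences enter this relation.

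None of the other 15 relations passed. CLIC6 in dorsal tissue had r = 0.872 (rho = 0.829, exact permutation p = 0.0208 for r and 0.0583 for rho, adjusted p = 0.156 and 0.467). AQP1 in ventral tissue had r = -0.856 (rho = -0.600, exact permutation p = 0.0306 for r and 0.242 for rho, adjusted p = 0.156 and 0.569). Leaving out the 2 farthest libraries gave 0.866 for CLIC6 and -0.581 for AQP1. In ventral tissue several values rested on ventral control 1: r with C1QTNF5 was 0.824 with it and 0.0514 without it, and r with OTX2 was 0.819 with it and -0.297 without it.

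TTR was also not in a fixed ratio to other transcripts of the epithelium. There were 186 to 548 TTR counts per CLIC6 count in dorsal libraries and 31.0 to 391 in ventral ones, with medians of 247 and 59.6. Per FOLR1 count there were 181 to 391 TTR counts in dorsal and 18.9 to 174 in ventral libraries, without overlap. Per C1QTNF5 count there were 7.42 to 46.3 in dorsal and 11.4 to 43.0 in ventral libraries, which overlapped widely. Per AQP1 count there were 18.6 to 762 in dorsal and 4.40 to 3440 in ventral libraries, with medians of 32.8 and 33.7. Ventral control 1 gave the highest ventral ratio each time. The other ventral libraries gave at most 93.4 per CLIC6 count, 34.6 per FOLR1 count and 39.5 per AQP1 count.

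None of the 10 genes whose group-centred levels were most like those of TTR was among the genes listed for the choroid plexus. By Pearson correlation over the 12 libraries they were SNRPB2, INTS9, DTL, TSPAN9, ARHGAP23, ADORA1, FMN1, IGF2R, METTL16 and GAR1, with values of 0.974 for SNRPB2 down to 0.899 for GAR1. Of these, TSPAN9 (-0.84 ± 0.19, edgeR adjusted p = 0.0323) and FMN1 (-1.42 ± 0.34, edgeR adjusted p = 0.0394) were lower in dorsal than in ventral tissue. By the same measure C1QTNF5 ranked above 96.7% of tested genes, FOLR1 and OTX2 above 95.1% and AQP1 above 3.67%. Neither the 10 genes nor these ranks were drawn up again without both control 1 libraries. Without them the correlation with TTR was -0.12 for C1QTNF5, -0.08 for AQP1, 0.85 for FOLR1 and 0.52 for OTX2. The ranks of C1QTNF5 and AQP1 thus rest on these libraries.

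Other genes of the choroid plexus epithelium did not follow TTR as a group. Of 54 further genes listed for this epithelium 49 were tested, and edgeR called 3 higher and 6 lower in dorsal tissue, against the 1.44% and 3.07% of all genes given above. Their median log2 fold change was -0.10. Besides MFRP, those higher included CLDN2, the claudin of its leaky tight junctions. CLDN2 stood at 0.647, 0.304 and 1.14 CPM in dorsal stress, 1.59, 1.39 and 1.91 CPM in dorsal control, 0.116, 0.237 and 0.0894 CPM in ventral stress and 0.240, 0.0496 and 0.0560 CPM in ventral control. All 6 dorsal libraries were above all 6 ventral ones (2.95 ± 0.51, edgeR adjusted p = 0.00850).

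The 6 lower ones were a transporter, 3 genes of epithelial structure and 2 secreted factors. SLC22A8, an organic anion transporter of the choroid plexus and also of the arachnoid barrier, averaged 3.08 CPM in dorsal stress, 5.68 in dorsal control, 34.0 in ventral stress and 44.9 in ventral control (-3.22 ± 0.41, edgeR adjusted p = 0.00236). KRT8, a keratin, had a log2 fold change of -3.26 ± 0.74, and the adhesion gene CDH1 had -1.98 ± 0.45. EPCAM, another adhesion gene, averaged 2.06 CPM in dorsal stress, 1.59 in dorsal control, 7.38 in ventral stress and 7.07 in ventral control. SOSTDC1, a secreted bone morphogenetic protein and Wnt inhibitor, had -2.05 ± 0.48, and the growth factor gene IGF2 had -1.68 ± 0.38. The adjusted p of these 5 in edgeR lay between 0.0187 and 0.0375.

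By role, edgeR called 0 of 3 tested transcription factors, 0 of 10 ion and water transport genes, 1 higher and 1 lower of 12 nutrient and hormone transporters, 1 higher and 2 lower of 16 secreted proteins and receptors, and 1 higher and 3 lower of 8 keratin and junction genes. LMX1A, a transcription factor of the roof plate and choroid plexus, had 2.23 ± 0.71 (adjusted p = 0.128). KCNJ13, a potassium channel of the epithelium, averaged 8.61 CPM in dorsal stress, 13.8 in dorsal control, 12.0 in ventral stress and 12.0 in ventral control, with a log2 fold change of -0.14 ± 0.31. None of the 49 was called in a comparison of stress with control.

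Markers of other cell types differed between the regions as well. Of 11 meningeal fibroblast genes 8 were lower in dorsal tissue and none higher, with a median log2 fold change of -1.27. Their summed level was 191 to 210 CPM in dorsal stress, 167 to 278 in dorsal control, 518 to 684 in ventral stress and 377 to 718 in ventral control, led by DCN (-2.01 ± 0.28, edgeR adjusted p = 0.00337). The ependymal list, for the ciliated cells that line the ventricle beside the choroid plexus, had 12 of 12 positive log2 fold changes with a median of 0.52, and DNAI2, a ciliary dynein gene, was the 1 called (1.38 ± 0.33, edgeR adjusted p = 0.0369). Its summed level was 134 to 173 CPM in dorsal stress, 172 to 175 in dorsal control, 101 to 146 in ventral stress and 109 to 203 in ventral control. No marker of these lists was at 0 in all libraries. The part of these tissues in the levels of the 9 transcripts was not tested.

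Further lists gave few calls. Of 8 genes of neurons and hippocampus NEUROD2 was higher (1.31 ± 0.31, edgeR adjusted p = 0.0385) and GAD1 lower (-0.51 ± 0.10, edgeR adjusted p = 0.0154) in dorsal tissue. None was called of 10 endothelial, 6 astrocyte, 2 erythrocyte and 3 pineal genes tested, with medians of -0.17, -0.17, -0.31 and 0.08. Of the 7 erythrocyte genes listed, which bear on AQP1, only 4 were found by symbol in the count table. Those 4 summed to 0.817 to 4.33 CPM in dorsal stress, 0.360 to 1.84 in dorsal control, 1.07 to 4.35 in ventral stress and 0.560 to 2.13 in ventral control. The pineal genes, which bear on TTR and OTX2, summed to at most 4.18 CPM in any library.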

How the data were processed

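RNA was extracted with TriReagent and libraries were made with a stranded TruSeq mRNA kit, per the labels' protocols. The authors deposited raw whole-number counts per gene, 1 column for each of 12 libraries. The submitters' processing notes name featureCounts 2.0.0, TopHat2 2.1.1 with Bowtie2 2.3.5.1, SAMtools 1.9, FastQC and bcl2fastq 2.20. The sources used here give no genome build, annotation or strand setting, so no coordinates are printed and antisense reads cannot be told apart. RefSeq symbols (assembly ARS-UI_Ramb_v3.0) replaced 478 placeholder names.

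Of 33609 genes, 9337 had no counts. In R 4.3.3 with edgeR 4.0.16, filterByExpr by group left 17806, which were TMM-normalized and fitted in 1 robust quasi-likelihood fit of 4 group means. The 7 comparisons were adjusted by Benjamini-Hochberg over all genes tested, and an adjusted p under 0.05 was a call. Each SE was computed by dividing the size of the log2 fold change by the root of its F value. Correlations used log2 CPM with a prior count of 2, and exact permutations of the pairings. In data simulated for the region comparison over both conditions (17806 genes), 30% of log2 changes of 1 and 78% of log2 changes of 2 were called, with 6.09% false among all calls. Changes were planted only in genes above a set mean count, and OTX2 and SLC4A5 lie below it. Libraries were drawn independently, without shared ewes or a shared component, so these shares may not hold for the real libraries.

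Same-numbered stress and control libraries of a region deviated together in all 6 pairs (correlations of 0.24 to 0.79), but only 4 of the 6 correlated best with their own number. The labels give no meaning to the numbers. For the stress comparisons the replicate block was a term for each number. For the comparisons of regions it was a term for each condition and number, which pairs dorsal with ventral libraries. P-values treat pools as independent although regions share ewes. No libraries of a group agreed within sampling noise (lowest chi-square 20.2 per degree of freedom). The 9 transcripts and the 15 other lists were chosen with earlier results of these data known. Named are the 9 transcripts, up to 4 genes per list by smallest p over both conditions and the most abundant gene of lists of other cell types (a few are not reported here), and the 10 genes most like TTR; KCNJ13 was named outside this rule after its values were seen. Alternatives were RLE size factors, other filters, a fit that was not robust, DESeq2 1.42.0, limma-voom (limma 3.58.1), a replicate block, thinned counts and leaving out libraries; leaving out both control 1 libraries was chosen after seeing the data.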

Additional observations from a re-analysis of the deposited data

How the results depend on the processing

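The number of the 9 transcripts called higher in dorsal tissue over both conditions was 4, with 5 in DESeq2 and 3 or 4 when leaving out 1 library. In stressed ewes 0 were called, against 3 with DESeq2, 2 with the replicate block, 2 without both control 1 libraries and 0 to 2 when leaving out 1 library (2 without ventral control 1). In control ewes 0 were called, against 1 with a filter of 1 CPM in 3 libraries, 1 when not robust, 5 with DESeq2, 1 with limma-voom, 3 with the replicate block, 1 without both control 1 libraries and 0 to 2 when leaving out 1 library (1 without ventral stress 2, 2 without ventral control 1). Of the 6 pairs of dorsal and ventral libraries with 1 number and condition, 4 had deviations that correlated above 0.1 (range -0.23 to 0.76) and 3 of 6 correlated best with their own number; whether they share ewes is not stated. The replicate block changed no call of a stress comparison. The 1 relation with TTR that passed became 0 with thinned counts, without the 2 farthest libraries, without both control 1 libraries, and 0 or 1 when leaving out 1 library; with 5 libraries, 1 relation at the smallest exact p cannot pass alone. All genes called between regions over both conditions were 803, 1558 in DESeq2 and 420 to 1091 when leaving out 1 library.

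Signs turned in 60 settings, none of them called (smallest adjusted p 0.207). For SLC4A5, dorsal minus ventral, the log2 fold change became 0.49 over both conditions and 1.00 in control ewes with limma-voom, and 0.061 and 0.32 with the replicate block. When leaving out 1 library it was -0.96 to 0.50 over both, -1.20 to 0.10 in stressed and -1.31 to 1.63 in control ewes. Stress minus control in dorsal tissue without both control 1 libraries was -0.074 for SLC4A5, -0.11 for AQP1, -0.068 for ENPP2 and 0.019 for C1QTNF5. When leaving out 1 library it was -0.27 to 0.62 for SLC4A5, -0.11 to 0.85 for AQP1, -0.072 to 0.32 for ENPP2, -1.42 to 0.019 for C1QTNF5 and -1.16 to 0.14 for KL. In ventral tissue without both control 1 libraries it was -0.36 for SLC4A5, 3.02 for OTX2, -0.28 for KL, 0.24 for C1QTNF5, 0.061 for FOLR1 (0.35 with thinned counts) and 0.024 for TTR. When leaving out 1 library it was -0.48 to 2.57 for SLC4A5, -4.58 to 3.12 for OTX2, -0.46 to 1.53 for KL, -1.35 to 0.24 for C1QTNF5, -0.55 to 0.19 for FOLR1, -2.51 to 0.024 for TTR and -0.073 to 0.26 for ENPP2.

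Without the 2 farthest libraries the r of TTR became 0.77 with SLC4A5 in dorsal tissue, and in ventral tissue 0.73 with KL, -0.17 with OTX2, 0.59 with SLC4A5, 0.51 with ENPP2 and -0.73 with C1QTNF5. Without the control 1 library it became 0.54 with AQP1, 0.80 with SLC4A5, 0.57 with ENPP2 and -0.11 with C1QTNF5 in dorsal tissue, and 0.20 with KL and -0.30 with OTX2 in ventral tissue. When leaving out 1 library it was -0.82 to 0.54 with AQP1, -0.11 to 0.94 with C1QTNF5, -0.77 to 0.57 with ENPP2 and -0.42 to 0.80 with SLC4A5 in dorsal tissue, and -0.84 to 0.20 with KL and -0.30 to 0.98 with OTX2 in ventral tissue. The median over pairs was -0.17 to 0.24. The cause of these shifts was not tested. OTX2 and SLC4A5 are limited by depth, since 1 CPM is 12.3 counts in the shallowest library.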

Other observations

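Few relatives of the 9 transcripts passed the test between the regions. The 28 tested were members of the aquaporin, chloride intracellular channel, ENPP, SLC4, folate receptor, OTX and C1QTNF families. KLB, the klotho relative listed, did not pass the filter on low counts. SLC4A11, a relative of SLC4A5, was the 1 called higher in dorsal tissue by edgeR, against 1.44% of all genes. It averaged 1.77 ± 0.24 CPM in dorsal stress, 1.81 ± 0.69 in dorsal control, 0.66 ± 0.10 in ventral stress and 0.95 ± 0.27 in ventral control (SD, n = 3 each), a log2 fold change of 1.18 ± 0.28 (SE, edgeR adjusted p = 0.0394). The median of the 28 was -0.11. C1QTNF7 gave -0.82 ± 0.21 (SE, edgeR adjusted p = 0.0562) and CLIC3 0.88 ± 0.31 (edgeR adjusted p = 0.189), and neither was called. FOLR2, the folate receptor of macrophages, gave -0.17 ± 0.20, against 1.01 ± 0.33 for FOLR1.

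Genes that act with the 9 transcripts were tested as a further list of 15. It holds the fibroblast growth factor receptors that klotho pairs with, the receptors and phosphatases of lysophosphatidic acid, the deiodinase gene DIO2 and the receptors of thyroid hormone. EdgeR called 0 of them between the regions, 4 had an unadjusted p under 0.05 (13.7% of all genes did) and the median log2 fold change was 0.03. Those 4 were DIO2 (0.36 ± 0.14), FGFR3 (-0.51 ± 0.22), THRA (-0.30 ± 0.13) and PLPP3 (-0.49 ± 0.22).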
